A study of Mus musculus with 12 samples.

Results

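The genes described here encode the machinery that copies DNA in S phase. They were 45 genes named by function, and probes were assigned to them through the RefSeq accession printed on the array. 44 of the 45 had a probe, out of 19259 gene symbols with a probe in all, and each of the 44 was well above background on all 12 arrays. Gins1, a subunit of the GINS complex of the helicase, had no matched probe and was not analysed here.

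RNA was measured in C2C12, an immortalised mouse myoblast line whose cells leave the cell cycle and fuse into myotubes when serum is lowered. Proliferating cultures were kept in DMEM with 10% fetal bovine serum until they were 80 to 90% confluent. Differentiating cultures were then moved to 2% horse serum and collected after 2, 5 or 8 days. Each of the 4 stages was measured on 3 one-colour Agilent arrays, labelled as independent experiments, which gave 12 arrays. All groups were the same cell line, and no genetic change or drug is named in the labels. Nothing in the labels tells whether the stages of an experiment came from shared or separate dishes, and p-values measure only the spread between these arrays.

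Replication starts at origins that were licensed beforehand. The origin recognition complex, Cdc6 and Cdt1 load the ring of Mcm2 to Mcm7, and the Cdc7-Dbf4 kinase with Cdc45 and GINS turns that ring into a moving helicase. DNA polymerase alpha with primase lays down primers, polymerases delta and epsilon extend them on the Pcna clamp, and Fen1 and Lig1 join the fragments of the lagging strand. Transcripts for many of these proteins are known to peak in cycling cells and to be controlled by E2F transcription factors, and a cell that has entered the post-mitotic myotube state no longer replicates its DNA.

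The stages mostly bore the marks of their labels. Mki67, a nuclear protein of cycling cells, stood at -0.59 ± 0.25 (log2 change ± SE) at day 2, which did not pass the test, and fell by 2.75 ± 0.25 at day 5 and by 3.25 ± 0.25 at day 8. Myog, a transcription factor of myocyte differentiation, rose by 2.82 ± 0.24 at day 2 and by 7.53 ± 0.24 at day 5, and embryonic myosin Myh3 rose by 3.40 ± 0.21 and 8.38 ± 0.21. Muscle creatine kinase Ckm rose by 7.76 ± 0.23 at day 5, although it was well above background on only 1 of the 3 proliferation arrays. Of 7 muscle genes read, 6, 7 and 6 were higher at days 2, 5 and 8, against 18.3%, 23.7% and 25.4% of all probes. Desmin (Des) was the exception, at -0.42 at day 2 and 0.65 at day 8. Of 4 myoblast genes, 3 were higher and 1 lower at day 5, and 1 was higher and 1 lower at day 8. 0 of 5 adipocyte markers were well above background on all arrays of any stage, while 3 of 5 osteoblast, 2 of 4 macrophage and 4 of 4 endothelial markers were. The mean over the 4 macrophage markers lay between -6.92 and -6.20 in proliferation and between -6.65 and -6.12 at day 8, with Csf1r and Aif1 higher at day 8 by 1.29 ± 0.17 and 1.56 ± 0.28. The mean of the 4 endothelial markers lay between -4.94 and -4.24 in proliferation and between -5.87 and -5.50 at day 8, and they did not move together: Tek was higher at day 8 by 1.98 ± 0.17, Cdh5 and Kdr fell by 2.17 ± 0.37 and 3.18 ± 0.26, and Pecam1 was at -0.47 ± 0.45. The part of other cells in the results was not tested. The negative-probe spots had medians of 6.25, 5.39 and 2.42 on the proliferation arrays and 1.39 to 3.53 on the others.

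Every value below is the log2 of the array's processed signal minus the log2 of that array's 75th percentile, so that 0 is the brightness of the 75th percentile and a step of 1 is a doubling. A change passed the test when limma's p-value, adjusted by the Benjamini-Hochberg method over the 22959 tested probes of all genes, was under 0.05. A gene with several probes is represented by its brightest one. Values of different genes are not compared as levels, since probes differ in how brightly they bind. In bulk RNA, fewer replicating cells and less RNA per cell cannot be told apart.

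The promoters of 4 members are printed to show the kind of sequence that stands before these genes. RefSeq's window from 250 bases before to 50 bases after the annotated start (GRCm38.p6) was available for 37 of the 45 genes, and 6 of them had more than 1 annotated start, which gave 44 windows. Capitals mark matches to an E2F-type motif, here TTTCCCGC, TTTCGCGC, TTTGCCGC or TTTGGCGC on either strand, and positions are counted from the annotated start, which is base 1. Mcm3 and Mcm5 encode helicase subunits, Pola1 encodes the catalytic subunit of polymerase alpha, and Tk1, thymidine kinase, is shown as a strongly falling gene whose window holds no match. The windows are chr1:20820263-20820562 on the minus strand (Mcm3), chr8:75109259-75109558 on the plus strand (Mcm5), chrX:93632106-93632405 on the minus strand (Pola1) and chr11:117825965-117826264 on the minus strand (Tk1).
Mcm3: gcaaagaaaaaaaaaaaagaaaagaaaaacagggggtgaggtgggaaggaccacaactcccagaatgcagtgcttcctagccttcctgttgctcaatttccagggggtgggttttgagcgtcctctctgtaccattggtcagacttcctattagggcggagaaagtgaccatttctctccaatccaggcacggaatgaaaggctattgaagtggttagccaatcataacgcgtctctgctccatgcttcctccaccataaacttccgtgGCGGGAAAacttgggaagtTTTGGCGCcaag
Mcm5: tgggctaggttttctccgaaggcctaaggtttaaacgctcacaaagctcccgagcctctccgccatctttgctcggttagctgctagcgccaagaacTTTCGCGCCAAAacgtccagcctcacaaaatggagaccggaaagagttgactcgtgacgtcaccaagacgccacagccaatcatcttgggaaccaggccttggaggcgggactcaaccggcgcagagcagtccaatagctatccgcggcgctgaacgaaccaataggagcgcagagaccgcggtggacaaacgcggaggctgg
Pola1: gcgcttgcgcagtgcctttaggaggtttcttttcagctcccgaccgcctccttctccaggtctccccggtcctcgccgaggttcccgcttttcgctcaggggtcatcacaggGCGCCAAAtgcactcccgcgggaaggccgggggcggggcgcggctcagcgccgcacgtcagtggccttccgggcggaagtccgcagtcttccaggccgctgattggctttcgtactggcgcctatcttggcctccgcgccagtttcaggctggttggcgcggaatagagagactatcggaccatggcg
Tk1: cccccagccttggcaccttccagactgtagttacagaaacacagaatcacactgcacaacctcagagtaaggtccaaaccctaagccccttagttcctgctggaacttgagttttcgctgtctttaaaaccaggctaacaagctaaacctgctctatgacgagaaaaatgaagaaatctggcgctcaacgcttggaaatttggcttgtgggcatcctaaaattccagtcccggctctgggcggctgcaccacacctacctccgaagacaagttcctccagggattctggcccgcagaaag

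Mcm3 had 2 matches within the first 50 transcribed bases, starting at bases 20 and 39. In Mcm5 the capitals are 2 matches on opposite strands that overlap, starting at -153 and -149. Pola1 had a match at -138. Of the 37 genes, 13 (35.1%) had at least 1 match in any of their windows, and 2.60% of all 27025 genes with a window did. For Lig1 and Mcm7 the match stood in 1 of several windows. The 13 genes were Orc1, Cdc6, Cdt1, Mcm3, Mcm5, Mcm6, Mcm7, Gins3, Pola1, Pold1, Pole2, Rfc3 and Lig1. A CCAAT box (CCAAT on either strand), which is contained in none of the E2F-type words, stood in a window of 22 of the 37 genes (59.5%) and of 41.1% of all genes. The median change at day 8 was -2.62 for the 13 genes with an E2F-type match and -2.44 for the 24 without. A match is a description of the letters and not evidence of binding.

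From proliferation to day 8 the replication genes fell nearly as a whole. 43 of the 44 were lower at day 8 and 0 were higher, with a median log2 change of -2.59, while the median over all tested probes was -0.11. Of all tested probes, 29.4% were called lower and 25.4% higher in the same comparison. The helicase subunit Mcm3 fell most, by 4.96 ± 0.29 (31.0-fold), followed by Tk1, by 4.35 ± 0.18, Mcm10, by 4.31 ± 0.23, Prim1, by 4.21 ± 0.37, and Rrm2, by 4.09 ± 0.24. The exception was Rrm1, the large subunit of ribonucleotide reductase, at -0.73 ± 0.31 (adjusted p = 0.065). All 3 day-8 arrays lay below all 3 proliferation arrays for 44 of 44 members, and for 35.2% of all tested probes. Proliferation and day 8 shared no slide, so for this comparison slide and stage can be separated only through the stages in between. With the slide as a block the call was kept by 39 of the 43, and Orc2, Gins4, Rfc2 and Rpa1 lost theirs (adjusted p = 0.367, 0.0509, 0.67 and 0.0849).

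**Figure D1:**
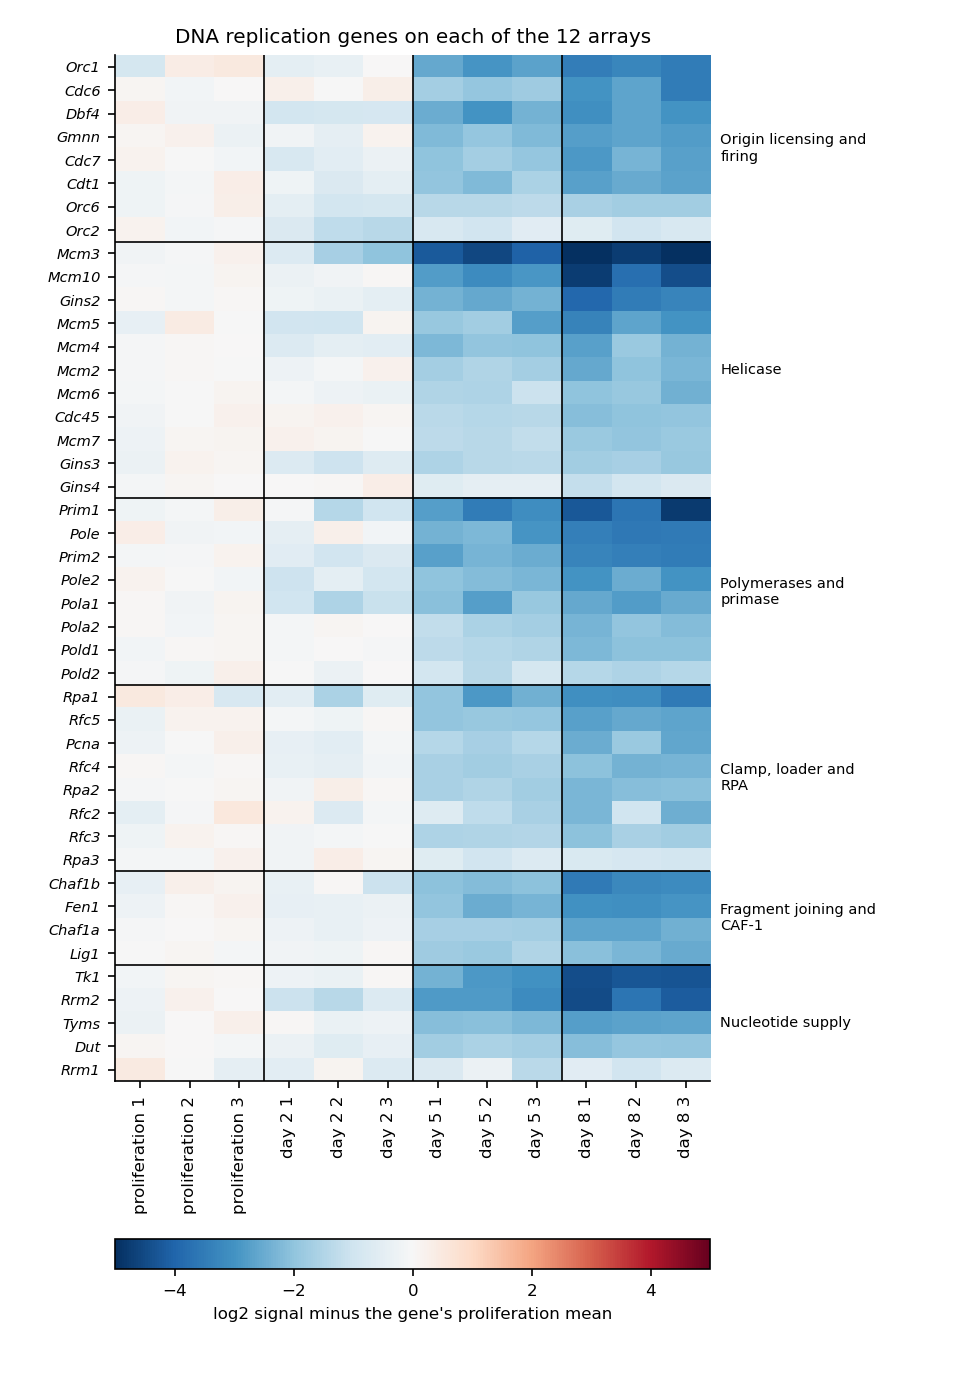
Each row is a gene and each column an array; colour is the log2 signal minus that gene's mean over the 3 proliferation arrays, from dark blue (lower) to red (higher). The day-2 columns are close to the proliferation columns for most genes, and the day-5 and day-8 columns are blue in every role group, most strongly for Mcm3, Mcm10, Prim1, Tk1 and Rrm2.

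Most of the fall came after day 2. At day 2, 12 of 44 members were called lower (median -0.30) and 0 higher, against 12.2% of all probes called lower and 18.3% called higher. Called or not, 37 of the 44 were below 0 at day 2, while the median over all tested probes was 0.07. By day 5, 43 of 44 were lower (median -1.85; 23.8% of all probes lower and 23.7% higher). Between day 2 and day 5, 41 of 44 fell (median -1.51; 15.7% lower and 14.3% higher), and between day 5 and day 8, 25 of 44 fell (median -0.66; 6.72% lower and 5.88% higher). No member was called higher in any of these comparisons. A moderated F test over the 4 stages called 43 of 44 members and 65.8% of all probes, and the member it did not call was Rrm1.

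The stages were spread over 3 slides, each scanned in a run of its own. Slide 1 held the 3 proliferation arrays and 1 day-2 array, slide 2 held 2 arrays each of day 2 and day 5, and slide 3 held 1 day-5 array and the 3 day-8 arrays. With the slide as a block, 3 of the 12 day-2 calls remained (Orc2, Pola1 and Pole2), the other 9 had adjusted p from 0.0638 to 0.329, and none remained within slide 1, where day 2 had 1 array, with a median change of -0.28. Over all tested probes the same slide-1 comparison called 0 lower and 1 higher. With the block, 1323 of all 22959 probes were lower at day 2 and 2195 higher. The step from day 2 to day 5 kept 38 of its 41 calls with the block and 36 within slide 2. Over all probes that step had 2634 lower and 2431 higher with the block, and 2443 and 2361 within slide 2. Of the 25 calls between day 5 and day 8, 4 remained with the block (Mcm6, Gins2, Chaf1a and Tk1) and none within slide 3, where day 5 had 1 array, with a median change of -0.65. Over all probes 41 were called lower and 76 higher within slide 3. Leaving out single arrays moved the 25 to 9 (without day-5 array 1), 13 (without day-8 array 1) and 11 (without day-8 array 3). Over all probes the lower calls of that step moved from 1543 to 539, 781 and 742 in the same settings. The members' median change with the block was -0.28 at day 2 and -0.65 in the last step, against -0.30 and -0.66 without it.

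**Figure D2:**
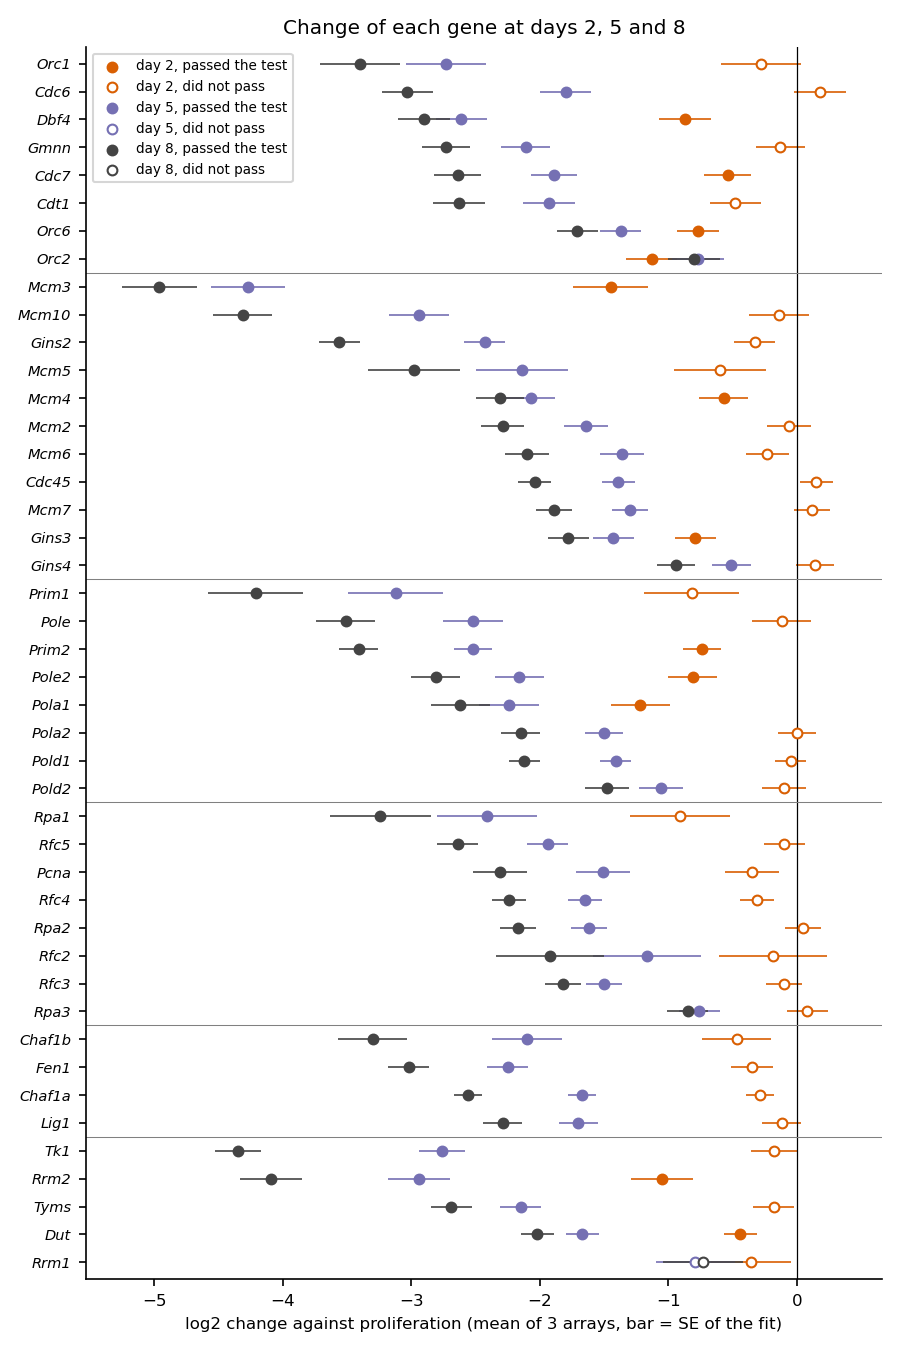
Points are the log2 change of each gene against proliferation at day 2 (orange), day 5 (purple) and day 8 (grey), from 3 arrays a stage, with bars for the SE of the fit; filled points passed the test and open points did not. The purple and grey points of most genes are far to the left of the orange ones, with a smaller gap for genes such as Orc6, Gins3 and Gins4. The day-2 point of Orc2 is its leftmost, and the points of Rrm1 lie close together.

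Among the genes of origin licensing and firing, 8 of 8 were lower at day 8 with a median of -2.68, and 4 of 8 (Orc2, Orc6, Cdc7 and Dbf4) were already lower at day 2, of which Orc2 kept the call with the slide as a block. Orc1, the ATPase subunit of the origin recognition complex, had the largest fall of the group, and Orc2, another of its subunits, the smallest. Orc1 measured -0.32, 0.91 and 1.02 in proliferation, 0.05, 0.15 and 0.57 at day 2, -2.03, -2.39 and -2.14 at day 5 and -2.92, -2.71 and -2.95 at day 8. The first proliferation array was lower than all 3 day-2 arrays, and the day-5 and day-8 arrays lay well below every earlier one. Its change was -0.28 ± 0.31 at day 2 (adjusted p = 0.519), or -0.71 (adjusted p = 0.0245) without that first proliferation array, and its fall was 3.40 ± 0.31 at day 8 (10.6-fold, adjusted p = 4.92e-06).

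Orc2 followed another course. It measured 0.57, 0.25 and 0.33 in proliferation, -0.33, -0.88 and -1.02 at day 2, -0.43, -0.57 and -0.17 at day 5 and -0.24, -0.59 and -0.43 at day 8. Every differentiating array was below every proliferation array, and the day-5 and day-8 arrays overlapped those of day 2. Its level was 1.13 ± 0.20 lower at day 2 (adjusted p = 0.00198), and the steps that followed were 0.35 ± 0.20 (adjusted p = 0.208) and -0.03 ± 0.20 (adjusted p = 0.936). The day-2 array on slide 1 was the highest of its stage, and without it the step from day 2 to day 5 passed the test as a rise of 0.56 (adjusted p = 0.0445). A second, dimmer probe of Orc2 fell by 1.74 ± 0.27 at day 2, 1.92 ± 0.27 at day 5 and 1.51 ± 0.27 at day 8, and its step from day 2 to day 5 was -0.18 ± 0.27 (adjusted p = 0.669). The probes thus shared the early fall, and the rise after it was not seen on the second.

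The remaining licensing genes fell with the group. Cdc6, which loads the helicase ring, was at 0.18 ± 0.20 at day 2 and fell by 1.80 ± 0.20 at day 5 and by 3.03 ± 0.20 at day 8. A second probe of Cdc6, nearly as bright, changed by -0.15 ± 0.15, -2.31 ± 0.15 and -3.39 ± 0.15 at days 2, 5 and 8. Cdt1, the partner of Cdc6, fell by 1.93 ± 0.20 and 2.63 ± 0.20 at days 5 and 8, and geminin (Gmnn), the protein that inhibits Cdt1, by 2.11 ± 0.19 and 2.73 ± 0.19. The loader and its inhibitor were thus both lower. The kinase subunit Cdc7 fell by 0.54 ± 0.18, 1.89 ± 0.18 and 2.64 ± 0.18 at the 3 times, and its activator Dbf4 by 0.87 ± 0.20, 2.61 ± 0.20 and 2.90 ± 0.20. The day-2 call of Cdc7 was lost also without a filter on dim probes (adjusted p = 0.0987) and without several single arrays (adjusted p up to 0.147). Orc6, the smallest subunit of the origin complex, fell by 0.77 ± 0.16, 1.37 ± 0.16 and 1.71 ± 0.16.

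In the helicase group, 11 of 11 measured genes were lower at day 8 with a median of -2.29, and 3 (Mcm3, Mcm4 and Gins3) were lower at day 2. The slide block removed these 3 day-2 calls (adjusted p = 0.0981, 0.133 and 0.0832), and the Mcm4 call was lost also with normexp background correction (-0.28, adjusted p = 0.27) and without most single arrays (adjusted p up to 0.134). Mcm3 measured 4.07, 4.19 and 4.47 in proliferation, 3.55, 2.57 and 2.24 at day 2, 0.06, -0.33 and 0.19 at day 5 and -0.85, -0.51 and -0.78 at day 8. The stages did not overlap, and the highest of the day-2 arrays was the one on slide 1. Its fall was 1.45 ± 0.29 at day 2 (adjusted p = 0.00446), 4.27 ± 0.29 at day 5 (adjusted p = 8.16e-07) and 4.96 ± 0.29 at day 8 (adjusted p = 2.01e-07). Within slide 1 its change at day 2 was -0.69 (adjusted p = 0.192).

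The 6 subunits of the Mcm ring, each read by its own probe, had estimated falls of different size. Beside Mcm3, the day-8 falls were 2.98 ± 0.36 for Mcm5, 2.31 ± 0.19 for Mcm4, 2.29 ± 0.17 for Mcm2, 2.10 ± 0.17 for Mcm6 and 1.89 ± 0.14 for Mcm7. The differences between subunits were not tested. Mcm10, an initiation factor that binds the ring, was at -0.14 ± 0.23 at day 2 and fell by 2.94 ± 0.23 at day 5 and by 4.31 ± 0.23 at day 8.

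Cdc45, which completes the active helicase with GINS, was at 0.15 ± 0.13 at day 2 and fell by 1.39 ± 0.13 and 2.04 ± 0.13 at days 5 and 8. Among the GINS subunits, Gins2 fell by 3.56 ± 0.16 at day 8, Gins3 by 1.78 ± 0.16 and Gins4 by 0.94 ± 0.15. Gins4 measured 1.92, 2.11 and 2.04 in proliferation, 2.02, 2.09 and 2.37 at day 2, 1.41, 1.57 and 1.56 at day 5 and 0.83, 1.11 and 1.29 at day 8. Its day-2 arrays overlapped those of proliferation, while each later stage lay below the one before it. The fall of Gins4 was 1.92-fold at day 8 (adjusted p = 0.000348).

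**Figure D3:**
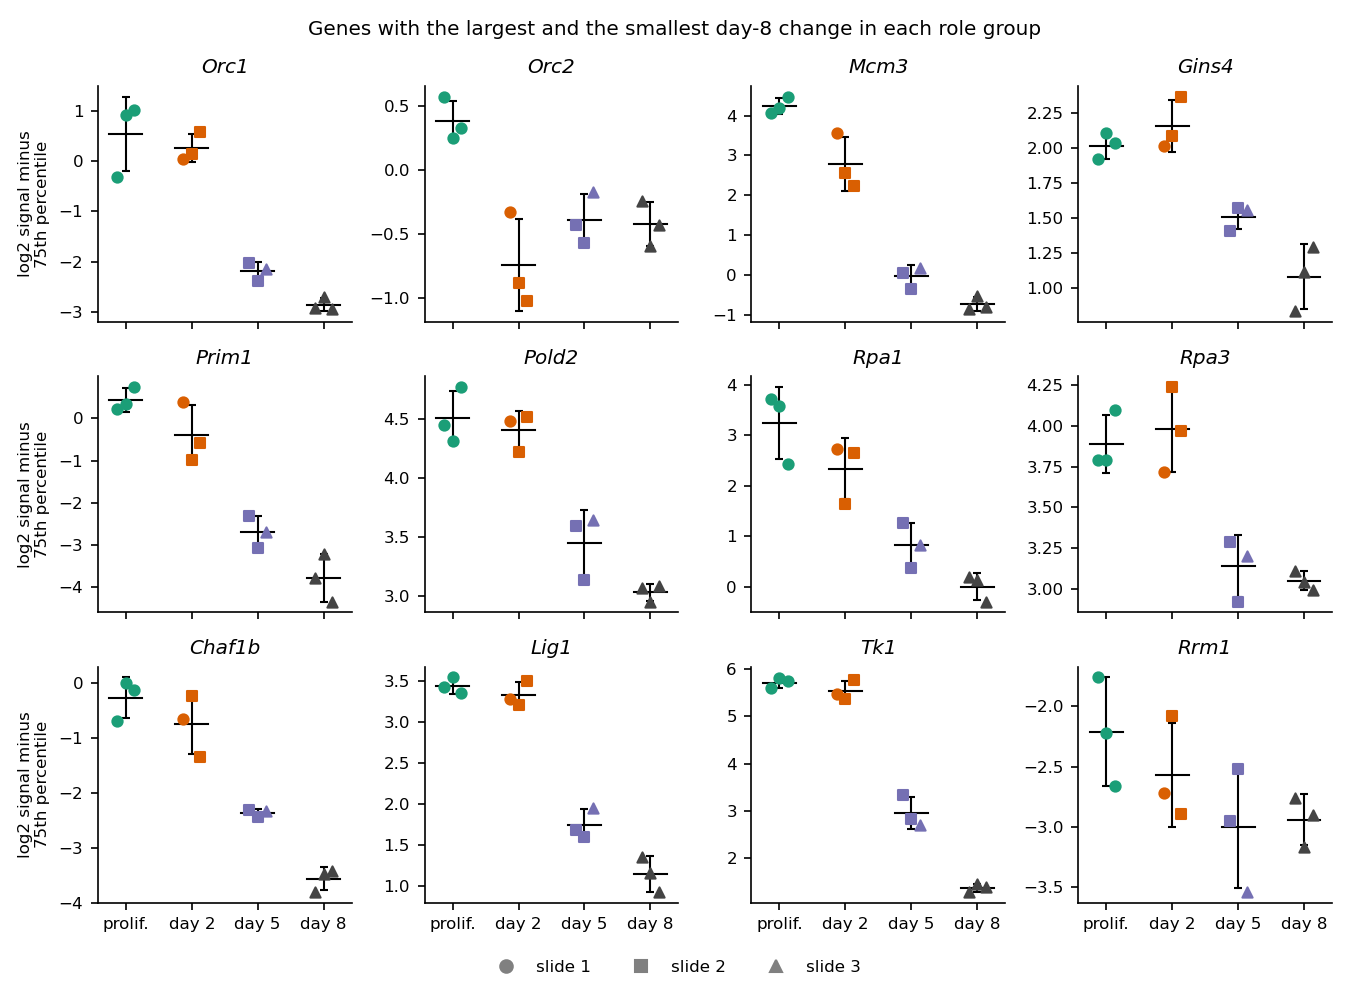
Each panel shows a gene on the 12 arrays, as the log2 signal minus the array's 75th percentile; the marker shape is the slide, the long line the mean of 3 arrays and the bar their SD, and the vertical scales differ between panels. Tk1 and Mcm3 drop by several log2 units after day 2, Orc2 is lowest at day 2, and the stages of Rrm1 overlap except that its day-8 arrays lie below its proliferation arrays.

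The polymerases and primase were all lower at day 8 (8 of 8, median -2.72), and Pola1, Prim2 and Pole2 were lower at day 2. Of these, Prim2 lost the call under the slide block (adjusted p = 0.114) and with normexp (-0.21, adjusted p = 0.248). Prim1, the catalytic subunit of primase, measured 0.21, 0.34 and 0.74 in proliferation, 0.38, -0.98 and -0.58 at day 2, -2.32, -3.07 and -2.69 at day 5 and -3.79, -3.22 and -4.34 at day 8. The day-2 array on slide 1 lay among the proliferation arrays and the 2 on slide 2 lay below them. Its change at day 2 was -0.82 ± 0.37 (adjusted p = 0.115), or -1.21 (adjusted p = 0.0312) without the slide-1 array, and its fall at day 8 was 4.21 ± 0.37 (18.5-fold, adjusted p = 3.93e-06). The primase partner Prim2 fell by 0.74 ± 0.15 at day 2 and by 3.41 ± 0.15 at day 8.

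Pola1 measured 0.57, 0.36 and 0.65 in proliferation and -0.48, -1.03 and -0.57 at day 2, groups that did not overlap. It fell by 1.22 ± 0.23 at day 2, by 2.24 ± 0.23 at day 5 and by 2.62 ± 0.23 at day 8. Pola2, the regulatory subunit of the same polymerase, was at 0.00 ± 0.15 at day 2 and fell by 1.50 ± 0.15 at day 5 and by 2.15 ± 0.15 at day 8. Pola1 had thus passed the test at day 2 and Pola2 had not, and the difference between them was not tested.

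The leading-strand polymerase Pole was at -0.12 ± 0.23 at day 2 (-0.66 with normexp, adjusted p = 0.0224) and fell by 2.52 ± 0.23 and 3.51 ± 0.23 at days 5 and 8. Its accessory subunit Pole2 fell by 0.81 ± 0.19 at day 2 and by 2.81 ± 0.19 at day 8. Pold1, the catalytic subunit of polymerase delta, fell by 1.41 ± 0.12 at day 5 and by 2.12 ± 0.12 at day 8. Pold2, an accessory subunit of polymerase delta, had the smallest fall of the group, and measured 4.45, 4.31 and 4.77 in proliferation, 4.48, 4.22 and 4.52 at day 2, 3.59, 3.13 and 3.64 at day 5 and 3.07, 2.95 and 3.08 at day 8. Proliferation and day 2 overlapped, and days 5 and 8 were lower than both without overlap. Its fall at day 8 was 1.48 ± 0.17 (2.78-fold, adjusted p = 3.80e-05).

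The clamp, its loader and the single-strand binding protein RPA were lower at day 8 in 8 of 8 genes (median -2.21), and 0 of 8 had passed the test at day 2. Rpa1 passed at day 2 without proliferation array 3 (-1.31, adjusted p = 0.0198) and with normexp (-1.56, adjusted p = 0.0218), and Rfc4 with quantile normalization (-0.42, adjusted p = 0.0283). Pcna, the sliding clamp, fell by 1.51 ± 0.21 at day 5 and by 2.31 ± 0.21 at day 8. The loader subunits Rfc3, Rfc4 and Rfc5 fell at day 8 by 1.82 ± 0.14, 2.24 ± 0.13 and 2.64 ± 0.16. Rfc2, of the same loader, fell by 1.92 ± 0.42, but its day-8 arrays read -2.36, -1.08 and -2.53, and the middle one was higher than 2 of the 3 day-5 arrays. With the slide as a block its day-8 change was -0.72 (adjusted p = 0.67).

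RPA has 3 subunits, and the differences between them were not tested. Rpa1, the largest subunit, measured 3.72, 3.58 and 2.43 in proliferation, 2.73, 1.65 and 2.64 at day 2, 1.27, 0.38 and 0.84 at day 5 and 0.19, 0.13 and -0.29 at day 8. Proliferation array 3 was within the day-2 range, and the day-8 arrays were lower than all others. The fall at day 8 was 3.24 ± 0.39 (9.42-fold, adjusted p = 4.31e-05), and under the slide block the change was -2.66 (adjusted p = 0.0849). Rpa2 fell by 2.17 ± 0.14.

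Rpa3, the smallest subunit, measured 3.79, 3.79 and 4.10 in proliferation, 3.72, 4.24 and 3.97 at day 2, 3.29, 2.92 and 3.20 at day 5 and 3.11, 3.04 and 2.99 at day 8. The first 2 stages overlapped, as did the last 2, and the gap was between them. Its fall was 0.76 ± 0.16 at day 5 and 0.85 ± 0.16 at day 8 (1.80-fold, adjusted p = 0.00129).

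The genes of fragment joining and chromatin assembly were lower in 4 of 4 cases at day 5 and day 8 (median at day 8 -2.79), in 0 of 4 at day 2, and 4 of 4 fell again between day 5 and day 8. With quantile normalization Fen1 (-0.51, adjusted p = 0.0222) and Chaf1a (-0.39, adjusted p = 0.0203) were called lower at day 2. Under the slide block Chaf1a alone of the 4 kept its call in the last step. Chaf1b, a subunit of the chromatin assembly factor CAF-1 that places histones on new DNA, measured -0.69, 0.00 and -0.12 in proliferation, -0.65, -0.23 and -1.34 at day 2, -2.31, -2.45 and -2.34 at day 5 and -3.81, -3.48 and -3.43 at day 8. Proliferation and day 2 overlapped, and days 5 and 8 formed 2 separate lower groups. It fell by 3.30 ± 0.27 at day 8 (9.87-fold, adjusted p = 2.20e-06), and its partner Chaf1a by 2.56 ± 0.11.

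The flap nuclease Fen1 fell by 2.25 ± 0.16 at day 5 and by 3.02 ± 0.16 at day 8. DNA ligase 1, Lig1, had the smallest fall of these 4, and measured 3.43, 3.54 and 3.35 in proliferation, 3.28, 3.21 and 3.50 at day 2, 1.68, 1.60 and 1.95 at day 5 and 1.36, 1.16 and 0.93 at day 8. Its day-8 arrays were lower than all others. The fall at day 8 was 2.29 ± 0.15 (4.90-fold, adjusted p = 4.86e-07) on the brightest probe and 2.01 ± 0.14 on the second probe of the gene, and the last step passed on the first probe (-0.60, adjusted p = 0.0311) and not on the second (-0.42, adjusted p = 0.0709).

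For nucleotide supply, 4 of 5 genes were lower at day 8 (median of the 5 -2.69) and 2, Rrm2 and Dut, were lower at day 2, calls that the slide block removed (adjusted p = 0.0681 and 0.329). Tk1, which salvages thymidine, measured 5.59, 5.81 and 5.75 in proliferation, 5.47, 5.36 and 5.77 at day 2, 3.34, 2.83 and 2.70 at day 5 and 1.28, 1.45 and 1.38 at day 8. Day 2 overlapped proliferation, and then each stage lay far below the one before. Its change at day 2 was -0.18 ± 0.18 (adjusted p = 0.476), and its fall at day 8 was 4.35 ± 0.18 (20.3-fold, adjusted p = 1.52e-08).

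Ribonucleotide reductase makes deoxynucleotides and is built of a large subunit, Rrm1, and a small one, Rrm2. Rrm2 measured 3.78, 4.25 and 4.05 in proliferation, 2.95, 2.64 and 3.34 at day 2, 1.21, 1.20 and 0.87 at day 5 and -0.43, 0.37 and -0.12 at day 8, with no overlap between stages. It fell by 1.05 ± 0.24, 2.94 ± 0.24 and 4.09 ± 0.24 at the 3 times. Rrm1 measured -1.76, -2.22 and -2.66 in proliferation, -2.72, -2.08 and -2.89 at day 2, -2.95, -2.52 and -3.54 at day 5 and -2.76, -3.17 and -2.90 at day 8. Its day-2 and day-5 arrays overlapped those of proliferation, and its day-8 arrays were just below them. The 95% interval of the day-8 change of Rrm1 ran from -1.41 to -0.05 (unadjusted p = 0.0375), and an adjusted p that misses the threshold does not show that Rrm1 stayed level. Without proliferation array 3 the change was -0.95 (adjusted p = 0.0331).

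Tyms, which makes thymidylate, was at -0.18 ± 0.16 at day 2 and fell by 2.15 ± 0.16 at day 5 and by 2.69 ± 0.16 at day 8. Dut, which removes dUTP, fell by 2.02 ± 0.13 at day 8 on its brightest probe and by 2.08 ± 0.19 on the second. At day 2 the probes of Dut were not called alike, with -0.44 ± 0.13 (adjusted p = 0.0259) and -0.17 ± 0.19 (adjusted p = 0.526). From day 5 to day 8 it was the second probe that passed, at -0.65 (adjusted p = 0.0447), and not the first, at -0.35 (adjusted p = 0.103).

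The timing of the fall was then set against its size. At day 2 the members had covered a median of 11.1% of their log2 change at day 8 (from -14.9% for Gins4 to 140% for Orc2), and at day 5 a median of 73.6% (from 54.2% for Gins4 to 108% for Rrm1). In the same limma fit, the step from day 2 to day 5 was compared with the step from proliferation to day 2, a comparison added after the data were seen. The median difference was -1.07, and the difference was below 0 in 40 of 44 members. The second step passed the test as the larger fall in 23 of them, and 1 member, Orc2, passed the other way. The steps differ in length and were not scaled by it. The first ran from day 0 to day 2 and the second from day 2 to day 5. Over all probes 11.8% were called lower and 8.61% higher in this comparison. With the slide as a block the members' counts were 25 and 1, and over all probes 2226 were lower and 1732 higher.

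The second step exceeded the first by most for Mcm10 (-2.67 ± 0.39, adjusted p = 0.00116), Tk1 (-2.40 ± 0.31), Pole (-2.28 ± 0.39), Orc1 (-2.17 ± 0.53) and Cdc6 (-2.17 ± 0.35). None of these 5 genes passed the test at day 2, with the exceptions given above of Orc1 without proliferation array 1 and Pole with normexp. The first step is part of the difference by which they were picked, so a small first step is partly built into that choice. In 20 members the difference did not pass the test, which does not show that the steps were equal. The differences nearest 0 were those of Rrm1 (-0.08 ± 0.53), Gins3 (0.14 ± 0.28), Orc6 (0.17 ± 0.28) and Pola1 (0.20 ± 0.40). For Orc2 the difference was 1.48 ± 0.34 (adjusted p = 0.0118), a call that was lost without day-2 array 2 or day-2 array 3. Of the 12 members lower at day 2, 11 fell again between day 2 and day 5, Orc2 being the exception. Cdc7, Prim2, Pole2 and Rrm2 were the 4 that passed in all 3 successive steps, and Rrm1 and Rfc2 passed in none. Once the slide was a block, none of the 4 passed in all 3 steps: the last step was lost by each (adjusted p = 0.172, 0.0586, 0.334 and 0.184), and the first by Cdc7, Prim2 and Rrm2. The last step of Pole2 was also lost without most single arrays (adjusted p up to 0.161). Prim2 lost its first step also with normexp (-0.21, adjusted p = 0.248). Cdc7 lost its first and its last step without several single arrays (adjusted p up to 0.147 and 0.0876).

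**Figure D4:**
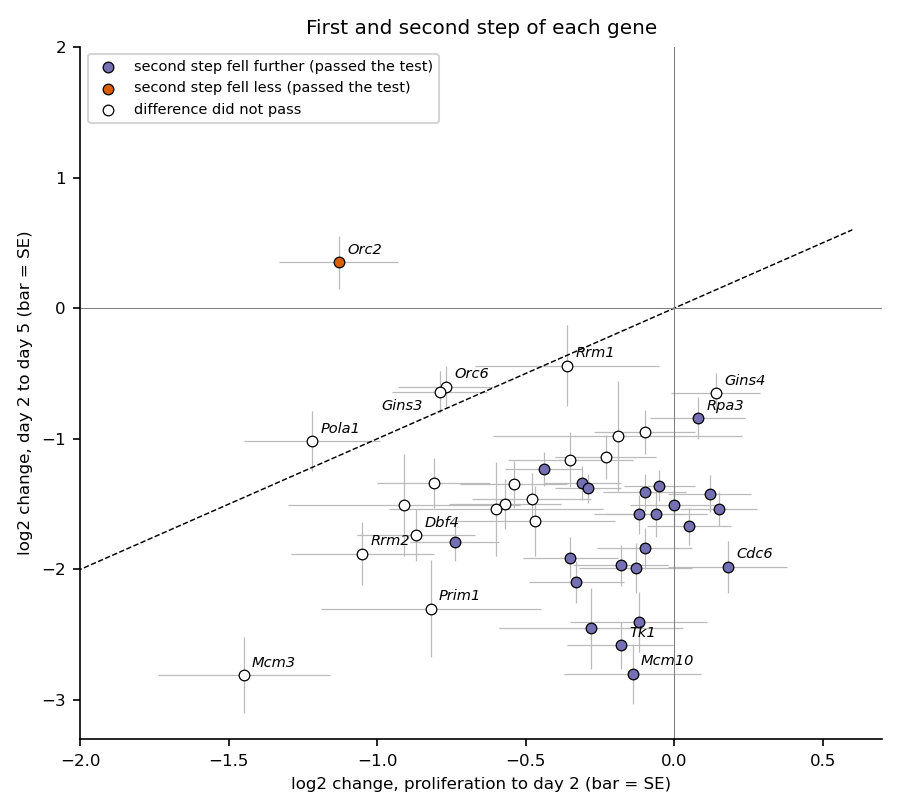
Each point is a gene, with its log2 change from proliferation to day 2 on the horizontal axis and from day 2 to day 5 on the vertical axis, bars giving the SE; on the dashed line both steps are equal. Most points lie well below the line with a first step near 0, Pola1, Orc6, Gins3 and Rrm1 lie close to it, and Orc2 alone lies above 0 on the vertical axis.

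A further 46 genes of replication that were not among the members, chosen by function, were read in the same way, and 44 of them were tested. They gave 12 lower and 0 higher at day 2 (median -0.36), 34 lower and 1 higher at day 5 (median -1.40) and 36 lower and 2 higher at day 8 (median -1.87). Under the slide block the lower counts were 4, 25 and 24, and 0 were higher. Dna2, a nuclease and helicase that trims fragment ends, fell by 4.04 ± 0.29 at day 8. Dscc1, of an alternative clamp loader, fell by 3.91 ± 0.36, and Ticrr, a factor of origin firing, by 3.84 ± 0.13. These 3 had the largest falls of the list, and the largest among the members, that of Mcm3, was greater.

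In the other direction stood Top1, Rrm2b and Poldip2. Top1, a topoisomerase that relaxes DNA in replication and in transcription, measured 3.57, 3.59 and 3.45 in proliferation and 4.65, 4.02 and 4.55 at day 8, and rose by 0.87 ± 0.16 (adjusted p = 0.000832). Rrm2b, the small subunit of ribonucleotide reductase that serves cells outside S phase, measured -0.96, -1.57 and -1.70 in proliferation and -0.64, -0.39 and -0.60 at day 8, and rose by 0.87 ± 0.19 (adjusted p = 0.0029). The day-8 arrays of both genes lay above all their proliferation arrays, but with the slide as a block neither passed the test. Poldip2, a protein that binds polymerase delta, was at 0.54 ± 0.31 (adjusted p = 0.169), and proliferation array 3, at 2.93, stood apart from the others at 4.19 and 4.40.

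**Figure D5:**
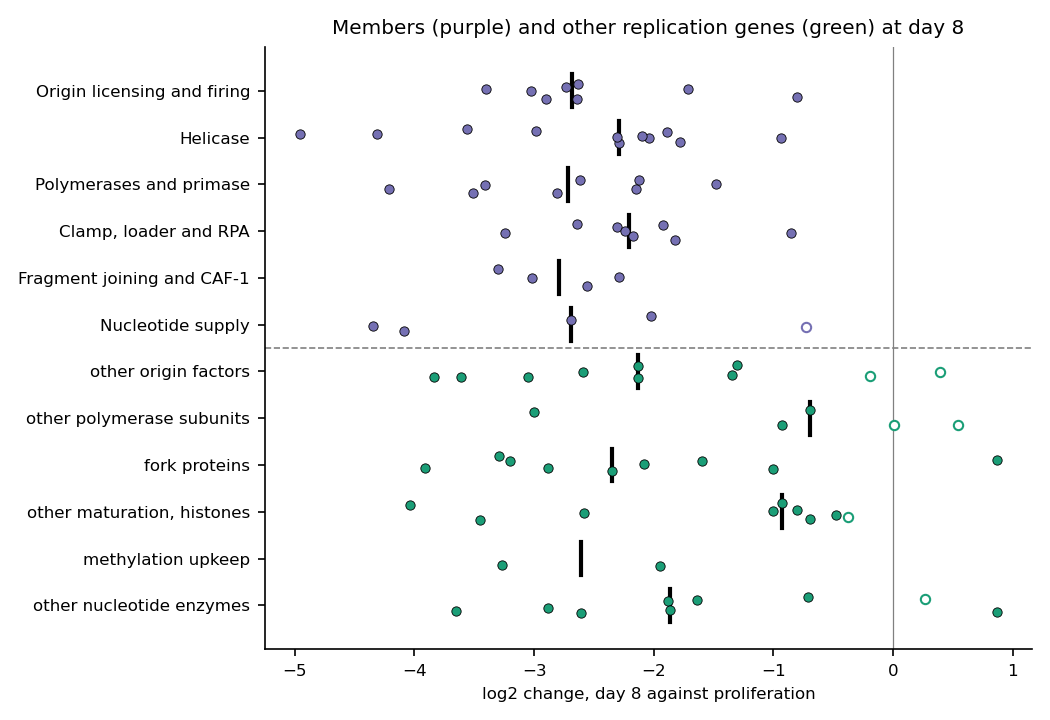
Points are genes, placed by their log2 change at day 8 against proliferation; members are purple and the other replication genes green, filled when they passed the test and open when not, and black bars are group medians. Members spread from -4.96 to -0.73 with medians between -2.79 and -2.21 in the 6 role groups, and the green points reach above 0 for Top1, Rrm2b and 4 genes that did not pass.

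The median SD of the members was 0.19 in proliferation, 0.22 at day 2, 0.17 at day 5 and 0.17 at day 8, with the largest at 0.79 (Rfc2 at day 8). The members' median changes were -0.30 at day 2, -1.85 at day 5 and -2.59 at day 8. The SD is that of single genes between arrays, and does not measure the precision of a median over 44 genes. The scanner software marked many spots of the members as non-uniform, which were 72.7% of their values in proliferation, 84.8% at day 2, 80.3% at day 5 and 68.9% at day 8. Over all spots used, bright and dim, the share was 19.8% to 28.3% per array, and shares at like brightness were not compared. The non-uniform spots were kept, a choice made with this known, and leaving them out left 5 of the 44 members to test. With them left out, and the 75th percentile taken over all spots, 4 of these 5 were lower at day 8, against 3192 of all 12106 probes then tested. With the percentile taken over the spots that stayed, 3 of the 5 were lower, against 1054 of the 12106.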

How the data were processed

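RNA of 12 C2C12 samples was measured on one-colour Agilent arrays of custom design, 3 per stage, with 1 µg of total RNA amplified and labelled with Cy3 per the labels' protocols. The deposited files hold the processed green-channel signal, an intensity in scanner units, and the submitters' processing notes name Agilent Feature Extraction 10.5.1.1 as the software. No normalization between arrays is given in the file headers. Between 56.9% and 69.5% of spots per array were well above background and 0 were saturated. The number of arrays limits the precision.

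Here log2 was taken, the spots of each probe were averaged with population outliers left out, and each array's 75th percentile was subtracted. Spots flagged as non-uniform were kept. Probes well above background on all 3 arrays of a stage were tested (22959 of 37246) with limma 3.58.1 (lmFit, eBayes) in R 4.3.3, in 1 fit of stage means over 12 arrays, with Benjamini-Hochberg adjustment and a threshold of 0.05. Accessions were matched to RefSeq symbols, which named 22216 probes. The fit was tested on simulated data. Groups were taken from the sample labels.

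All members were named, values per array were given for the largest and the smallest day-8 change of each role group and for other genes a result turned on, and of the other replication genes the 3 largest falls and the 3 largest rises at day 8 were named. Pola1 and Rrm2 were given per array after their values were seen. The members and gene lists were chosen with earlier results of these data known. Alternatives covered background correction (normexp with an offset of 50 on the median signal, since the mean signal was not used here), scaling, filters, slides, replicates and the choice of probe. The labels give the same replicate numbers in each stage. Same-numbered arrays of different stages deviated together only weakly (r from -0.16 to 0.24, with 5 of 18 pairs over 0.1). Differently numbered arrays gave r from -0.26 to 0.22, with 6 of 36 pairs over 0.1. The numbers were therefore not taken as pairs. Slides are mixed into these values, and the pair at 0.24 shared a slide. The values of 1 gene of the other replication genes are not reported here, and it stays in the counts of that list. Figures were drawn with matplotlib.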

Additional observations from a re-analysis of the deposited data

How the results depend on the processing

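The large falls held under most alternatives. The 43 members lower at day 8 stayed at 39 to 44, and the 43 lower at day 5 at 38 to 44, under every setting that kept all 44 members. Under the replicate block, in which arrays with the same experiment number share a term, 12, 43, 44, 41 and 21 members were lower at day 2, day 5 and day 8 against proliferation, at day 5 against day 2 and at day 8 against day 5. Over all probes that block gave 2762, 5447, 6754, 3442 and 1290 lower (2809, 5473, 6746, 3609 and 1543 without it). The block changed the calls of Rfc2 at day 5, of Rrm1 at days 5 and 8 and of Cdt1, Lig1, Pcna and Tyms in the last step, and 1 other replication gene in place of 2 was higher at day 8 against day 5. 5 of 12 arrays correlated best with an array of their own number, which does not settle whether the numbers mark pairs.

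Day 2 and the last step had fewer calls once slides were accounted for, while the members' median change moved little (-0.28 against -0.30 and -0.65 against -0.66). With the slide as a block, 3 members were lower at day 2 and 4 at day 8 against day 5, and within slides 1 and 3, where an arm has 1 array, there were 0 of each. For the other replication genes the block gave 4 lower at day 2, 25 at day 5 and 24 at day 8 (34 and 36 without it), 3 lower and 0 higher at day 8 against day 5, 0 higher at day 5 and 0 higher at day 8, and within slides 1 and 3 there were 0 lower and 0 higher. Over all probes the block gave 1323 lower and 2195 higher at day 2 (2809 and 4209 without it), 2365 and 2847 at day 5 (5473 and 5442), 1746 and 2226 at day 8 (6746 and 5827) and 306 and 438 in the last step (1543 and 1351). The cause of the lost calls was not tested.

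Without a filter on dim probes, 37246 probes were tested, 11 members and 5 other replication genes were lower at day 8 against day 5 with 0 higher, 7 other genes were lower at day 2 and 0 higher at day 5. Over all probes that last step then had 685 lower and 597 higher. With normexp, 1 other gene was higher at day 2 and 1 at day 8 against day 5. Normexp raised the median of all probes from 0.07 to 0.20 at day 2 and from -0.11 to 0.15 at day 8, and the split of all calls at day 2 was 2182 lower and 5832 higher. The members' median at day 8 was -2.34 with it.

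Leaving out non-uniform spots left 5 members and 13 other replication genes, so counts fall by construction. With the percentile over the spots that stay, 0, 1 and 3 members were lower at days 2, 5 and 8, 3 at day 5 against day 2, 0 in the last step, 2 lower and 0 higher in the comparison of steps, and 3 by the F test. The other genes had 0, 4 and 6 lower at days 2, 5 and 8, 3 higher at day 5, 3 lower at day 5 against day 2, and 0 lower and 0 higher in the last step. This setting moved the median of all probes to 0.75, 0.81 and 0.50, and reversed the members' median at day 2 (0.43), Dut at day 2 (0.23), Gins4 at day 5 (0.14) and Supt16 (0.17, 0.14 and 0.17). With the percentile over all spots, 1, 4 and 4 members were lower at days 2, 5 and 8, 4 at day 5 against day 2, 1 in the last step, 2 lower and 0 higher in the comparison of steps, and 4 by the F test. The other genes had 2, 10 and 9 lower at days 2, 5 and 8, 0 higher at day 5, 1 higher at day 8, 6 lower at day 5 against day 2, and 0 lower and 1 higher in the last step.

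Leaving out each array in turn gave 9 to 12 members lower at day 2, 41 to 44 at day 5, 43 to 44 at day 8, 39 to 42 lower and 0 to 1 higher at day 5 against day 2, 9 to 25 in the last step, and 20 to 24 lower and 0 to 1 higher in the comparison of steps. Over all probes the lower counts ran from 1997 to 2805 at day 2, from 4641 to 5513 at day 5 and from 5957 to 7513 at day 8. They ran from 2852 to 3744 at day 5 against day 2, from 539 to 2741 in the last step and from 1776 to 2774 in the comparison of steps. The other replication genes gave 6 to 14 lower at day 2, 0 to 1 higher at day 5, 2 to 3 higher at day 8, 0 to 1 higher at day 5 against day 2, and 4 to 11 lower and 0 to 2 higher in the last step.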
